A study of Drosophila melanogaster with 9 samples.

Results

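Spermatocyte testes of Drosophila melanogaster were compared with spermatogonia testes by small RNA sequencing, with 2 libraries against 2 of the 9 in the series. The libraries were chosen by their labelled cell type. The spermatocyte group held 1 library from can mutants and 1 from sa mutants, labelled as primary spermatocytes, and the apical tips of these testes had been cut off. The spermatogonia group held 1 library from bam mutants and 1 from bgcn mutants, labelled as early dividing germline cells (gonioblasts), from whole testes. All testes were dissected by hand. The alleles, the other markers of the stocks, the age of the flies and the number of testes were not given in the sources used here. Each library is a different mutant, so p-values measure the spread between 2 genotypes of a group. The stage, the mutant genotype and the cutting of the tips differ together between the groups and cannot be told apart. Somatic cells of the testis were not removed from any library. The tables list transposons and piRNA clusters only, so the expression of bam, bgcn, can, sa or of cell type marker genes was not analysed here.

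PIWI-interacting RNAs (piRNAs) are bound by Piwi proteins and direct them by base pairing to the transcripts of transposons, which are thereby silenced in the germline. Their precursors are transcribed from piRNA clusters, which are genomic loci filled with transposon remnants, and in germ cells the proteins Aub and Ago3 amplify them by cutting transposon and cluster transcripts in turn. In the fly testis, germ cells divide as spermatogonia and then grow as primary spermatocytes before meiosis. The genes bam and bgcn are needed to leave the dividing state, and can and sa are needed for the transcription programme of spermatocytes and for entry into meiosis.

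Reads were counted over 117 transposons and 99 piRNA clusters. Transposon-mapping reads numbered 519588 in can and 262757 in sa, against 438755 in bam and 580459 in bgcn. Cluster-mapping reads numbered 21594 in can and 11636 in sa, against 20920 in bam and 32654 in bgcn. There were 4.16 cluster-mapping reads per 100 transposon-mapping reads in can and 4.43 in sa, against 4.77 in bam and 5.63 in bgcn, so the groups did not overlap in this ratio and differed little. The sa library is the shallowest, and 36 of its 99 clusters had fewer than 10 reads, against 13 in can, 3 in bam and 2 in bgcn. Values below are shares of all reads of a table in a library, unless another scale is named. In bulk testes a lower share from fewer cells of a type cannot be told apart from a lower share from less small RNA per cell.

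The small RNA pool of spermatocyte testes was concentrated on fewer elements than that of spermatogonia testes. In can, 6 elements together made up 50% of transposon-mapping reads, and in sa 10 did, whereas 15 were needed in bam and 17 in bgcn. The 10 most abundant elements held 63.4% of reads in can and 52.8% in sa, against 38.7% in bam and 36.9% in bgcn. The effective number of elements, which is the inverse of the summed squared shares and equals the number of elements if all were equal, was 16.4 in can and 26.5 in sa, against 40.8 in bam and 40.6 in bgcn. The 2 spermatogonia libraries were nearly equal by all 3 measures, and both spermatocyte libraries lay on the same side of them. For clusters the libraries overlapped, with an effective number of 12.8 in can and 10.5 in sa, against 17.1 in bam and 9.54 in bgcn.

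On average over the libraries of each group, 35.5 percentage points of transposon-mapping reads lay on different elements in the spermatocyte group and the spermatogonia group. Of the gain, 78.8% fell on only 5 elements: Dsim-ninja, 1360, baggins, opus and aurora-element. The loss was spread over 83 elements, and the 5 with the largest loss (mdg3, Bari1, HMS-Beagle, Cr1a and Doc) made up 25.8% of it. Between single libraries, can and sa differed by 23.8 points and bam and bgcn by 21.8 points. All 4 pairs across groups differed by more, the closest being sa and bgcn at 29.9 points and the farthest can and bam at 46.1 points. For clusters the pairs did not separate in this way, since can and sa differed by 29.0 points and sa and bgcn by 27.4 points.

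Among the 114 elements with enough reads to test, 6 passed an adjusted p of 0.05 in edgeR's quasi-likelihood test on shares (5.26%), 4 higher and 2 lower in spermatocyte testes. The higher elements made up 3.51% of those tested and the lower ones 1.75%. Over all tested elements the median log2 fold change was -0.55, and fold changes are to be read against that value. After TMM scaling, which sets the typical element near no change (median -0.05), 10 were higher (8.77%) and 2 lower (10.5% in all), and all 6 calls on shares were among these 12. The other 6 were 1360, R1A1-element, diver2, jockey, FB and Tirant, all higher. For jockey the direction rested on sa: its log2 fold change on shares was 2.6 with all libraries and -0.38 without sa. That of FB went from 3.13 to 0.97 without sa. FB had 102 reads in can and 410 in sa, against 44 in bam and 58 in bgcn. Tirant had 110 reads in can and 108 in sa, against 19 in bam and 14 in bgcn. Scaled by the authors' own factor per library (median -0.88), 2 were higher and 8 lower (8.77% in all, 7.02% lower), and opus and baggins were no longer called (adjusted p = 0.0543 and 0.054 in edgeR). DESeq2, with its own size factors, called 11 higher (9.65%) and 6 lower. In 59 elements (51.8%) the groups did not overlap, with both spermatocyte libraries higher in 15 (13.2%) and both lower in 44 (38.6%). That split was 24 and 31 after TMM scaling and 11 and 58 with the authors' factors. The elements Dvir-Penelope, Dsub-GEM and Dtei-I-element had too few reads to test.

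**Figure D1:**
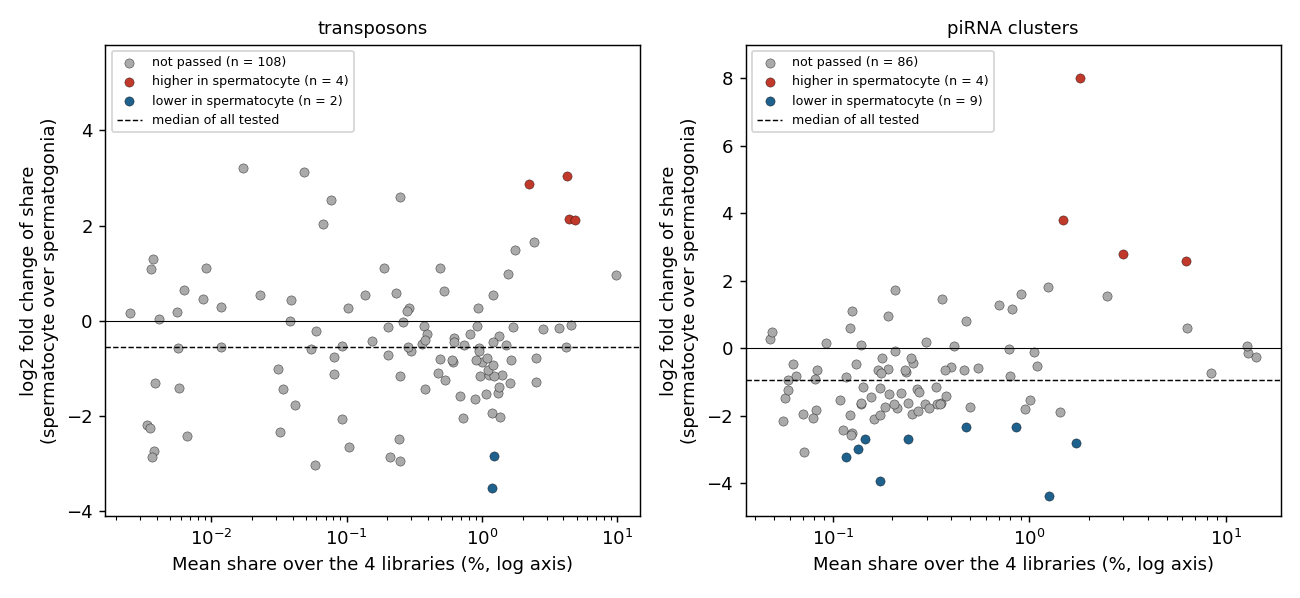
Log2 fold change of the share (spermatocyte over spermatogonia, vertical axis) against the mean share over the 4 libraries (%, log axis) for 114 transposons (left) and 99 piRNA clusters (right). Red and blue points passed an adjusted p of 0.05 in edgeR on shares, and the dashed line is the median of all tested features, at -0.55 for transposons and -0.93 for clusters. The 4 higher transposons have high mean shares, which include their raised shares in spermatocyte testes.

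The elements that rose were led by the related pair Dsim-ninja and aurora-element, long terminal repeat (LTR) retrotransposons of the BEL/Pao type, of which the first is a sequence of Drosophila simulans. Dsim-ninja took 9.44% of transposon-mapping reads in can and 5.64% in sa, against 0.486% in bam and 1.35% in bgcn. Its log2 fold change was 3.04 (SE 0.58, adjusted p = 3.53e-05 in edgeR). The aurora-element took 5.2% in can and 2.57% in sa, against 0.297% in bam and 0.762% in bgcn, with a log2 fold change of 2.88 (SE 0.66, adjusted p = 0.000855 in edgeR). In both elements can was the highest library and bam the lowest, and the groups did not overlap. How reads that match both sequences were counted was not given in the sources used here, so the values of this pair may share reads.

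The gypsy-type LTR retrotransposon opus took 6.55% of reads in can and 7.84% in sa, against 1.15% in bam and 2.14% in bgcn, a log2 fold change of 2.13 (SE 0.55, adjusted p = 0.00327 in edgeR). The element baggins, a LINE, which is a retrotransposon without LTRs, took 6.63% in can and 9.32% in sa, against 1.46% in bam and 2.23% in bgcn (log2 fold change 2.11, SE 0.54, adjusted p = 0.00316 in edgeR). Unlike the BEL/Pao pair, opus and baggins were higher in sa than in can, and baggins was the most abundant element of the sa library. In whole testes of the y w strain, labelled as holding all stages and not part of the test, opus took 8.23% and baggins 7.79%, above the highest of the 4 stage libraries for opus and between can and sa for baggins.

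The elements that fell were Bari1 and HMS-Beagle. Bari1, a DNA transposon of the Tc1/mariner type, had 1391 reads in can and 302 in sa, against 13953 in bam and 6636 in bgcn. These are shares of 0.268% and 0.115% against 3.18% and 1.14%, and the log2 fold change was -3.5 (SE 0.79, adjusted p = 0.000792 in edgeR). HMS-Beagle, a gypsy-type LTR retrotransposon, took 0.353% in can and 0.251% in sa, against 2.76% in bam and 1.53% in bgcn (log2 fold change -2.83, SE 0.76, adjusted p = 0.00442 in edgeR). In both elements bam was the highest library and sa the lowest.

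These 6 calls on shares were not kept without bam, without can or without sa, each of which leaves 1 library in its group. On shares, 0 elements passed without bam, without can or without sa, and the same 6 passed without bgcn. Without bam, without can and without sa, edgeR called 14, 18 and 17 elements at an unadjusted p under 0.05. The directions of the 6 held with any 1 library left out, and the log2 fold change of Dsim-ninja lay between 2.49 and 3.95. With TMM scaling 5, 12 and 7 elements passed without bam, without can and without sa, of which 4, 6 and 4 were among these 6.

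**Figure D2:**
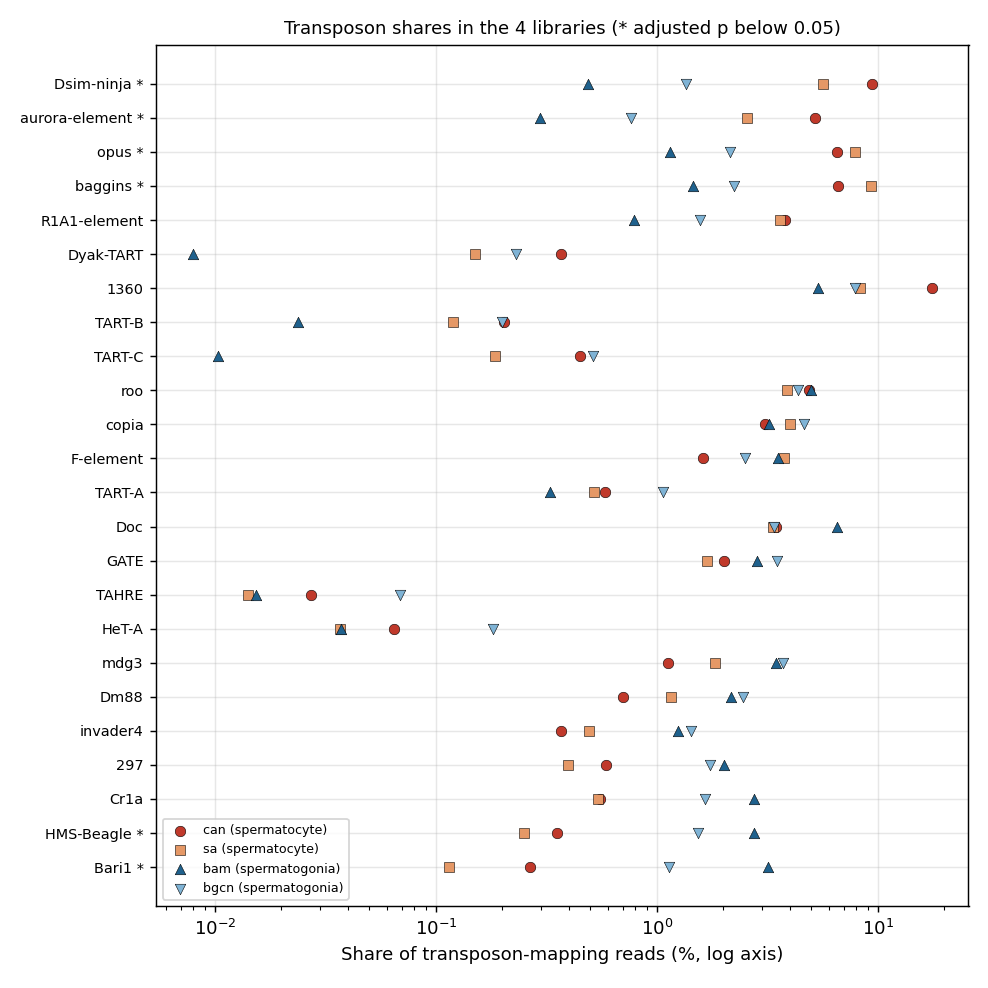
Share of transposon-mapping reads (%, log axis) of 24 named elements in the can and sa (spermatocyte) and bam and bgcn (spermatogonia) libraries, 1 point per library, ordered by log2 fold change. Elements with a star passed an adjusted p of 0.05, and the telomeric elements TART-B, TART-C and Dyak-TART have bam far below the other 3 libraries.

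The most abundant element of can and bgcn was 1360 (also called hoppel), a DNA transposon whose sequences also occur in the Suppressor of Stellate repeats of the Y chromosome. It took 17.5% of reads in can and 8.29% in sa (95% exact binomial interval 8.19 to 8.4), against 5.35% in bam and 7.91% in bgcn (7.84 to 7.98). The groups did not overlap, but sa and bgcn were close to each other and can stood apart. The log2 fold change of 0.96 (SE 0.44) did not pass on shares (adjusted p = 0.15 in edgeR), and the value after TMM scaling was 1.53 (adjusted p = 0.041 in edgeR). Intervals on single libraries cover counting error only and leave out the spread between libraries. PCR copies of a molecule cannot be told apart, and any such copies would make these intervals too narrow.

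Among LINEs, 1 of the 32 tested rose (baggins), 0 fell and 31 did not pass, where 3.51% of all elements rose and 1.75% fell. The LINEs had a median log2 fold change of -0.55, equal to that of all elements. In 6 of them both spermatocyte libraries were higher and in 13 both were lower, against 13.2% and 38.6% of all elements. R1A1-element, which inserts into the ribosomal RNA genes, took 3.79% in can and 3.62% in sa, against 0.787% in bam and 1.57% in bgcn. The libraries of each group were close and the groups did not overlap, and the log2 fold change of 1.66 (SE 0.62) had an edgeR adjusted p of 0.0957 on shares and of 0.0049 after TMM scaling. Cr1a, of the CR1 type, lay on the other side, with 0.551% in can and 0.539% in sa, against 2.75% in bam and 1.65% in bgcn (log2 fold change -2.01, SE 0.71, adjusted p = 0.0823 in edgeR). The abundant jockey-type elements Doc and F-element overlapped between groups, with log2 fold changes of -0.54 (SE 0.54) and -0.17 (SE 0.58). The I-element, known for causing hybrid dysgenesis in crosses of fly strains, had 52 reads in can and 41 in sa, against 742 in bam and 227 in bgcn (log2 fold change -3.02, SE 1.23, adjusted p = 0.106 in edgeR). It is named here after its value was seen.

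The LINE share was 23.5% in can and 28.3% in sa, against 23.0% in bam and 20.4% in bgcn. The groups did not overlap, but can and bam were nearly equal. Without Dsim-ninja, aurora-element and 1360 in the total, LINEs held 34.6% in can and 33.9% in sa, against 24.5% in bam and 22.7% in bgcn. None of those 3 elements is a LINE, so baggins stays in these values. All 3 were higher in both spermatocyte libraries, so leaving them out by itself raises LINE shares more in those libraries. Of all reads, baggins alone held 6.63% in can and 9.32% in sa, against 1.46% in bam and 2.23% in bgcn. The LINE share without baggins was not calculated, so these values do not show a rise across the family. The BEL/Pao share was 22.9% in can and 16.6% in sa, against 10.6% in bam and 9.79% in bgcn. Without those 3 elements it was 12.2% in can and 9.99% in sa, against 10.5% in bam and 8.54% in bgcn, and the groups overlapped. Dsim-ninja and aurora-element are BEL/Pao elements that rose, so a smaller difference without them follows from the choice. Of the 8 BEL/Pao elements 2 rose (Dsim-ninja and aurora-element), 0 fell and 6 did not pass. Over all elements 3.51% rose and 1.75% fell. The member roo had 4.9% in can and 3.88% in sa, against 4.98% in bam and 4.34% in bgcn, and overlapped. The members diver2 and diver did not pass on shares and pointed in opposite ways, at log2 fold changes of 1.48 (SE 0.66) and -1.54 (SE 0.75). After TMM scaling diver2 passed (1.97, adjusted p = 0.0184 in edgeR) and diver did not. Both were chosen after their values were seen. Since families were summed over 2 libraries a group, the smallest p an exact two-sided permutation test can give is 0.333, which is the value for the BEL/Pao and LINE shares.

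Gypsy-type elements held the largest share in every library and a smaller one in spermatocyte testes, with 26.5% in can and 37.6% in sa, against 47.6% in bam and 47.1% in bgcn (exact permutation p = 0.333). The spermatogonia libraries were almost equal and both spermatocyte libraries were lower, can more than sa. Without Dsim-ninja, aurora-element and 1360 in the total, the shares were 39.1% in can and 45.0% in sa, against 50.7% in bam and 52.4% in bgcn. The difference was -9.5 points, against -15.3 points with them. Those elements were higher in both spermatocyte libraries, so a smaller difference without them follows from the choice. Of the 48 gypsy-type members tested, 1 rose (opus), 1 fell (HMS-Beagle) and 46 did not pass. Over all elements 3.51% rose and 1.75% fell. Both spermatocyte libraries were lower in 21 members and higher in 3 (Stalker2, opus and Tirant), against 38.6% and 13.2% of all elements. The median log2 fold change of the family was -0.53, close to the -0.55 of all elements. Abundant members on the low side were mdg3, with 1.12% in can and 1.83% in sa, against 3.46% in bam and 3.73% in bgcn, and 297, with 0.591% in can and 0.395% in sa, against 2.02% in bam and 1.74% in bgcn. Their log2 fold changes were -1.29 (SE 0.61, adjusted p = 0.15 in edgeR) and -1.93 (SE 0.74, adjusted p = 0.0957 in edgeR). The members invader4 (-1.63, SE 0.8) and GATE (-0.77, SE 0.61) had both spermatocyte libraries lower and did not pass either.

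The 9 gypsy-type elements listed as typical targets in somatic gonadal cells were all detected in all 4 libraries. Together they held 2.32% of reads in can and 4.88% in sa, against 6.35% in bam and 6.17% in bgcn (exact permutation p = 0.333). None of the 9 passed the edgeR test, which 5.26% of all elements did. In 2 of the 9 (gypsy5 and Idefix) both spermatocyte libraries were lower, against 38.6% of all elements. The list's median log2 fold change of -0.44 was near the -0.55 of all elements. The part of somatic cells in the lower gypsy-type share was not tested. For gypsy5 the shares were 0.0321% in can and 0.0833% in sa, against 0.391% in bam and 0.487% in bgcn (log2 fold change -2.93, SE 1.13, adjusted p = 0.0957 in edgeR).

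Of the 16 DNA transposons, 0 rose, 1 fell (Bari1) and 15 did not pass, where 3.51% of all elements rose and 1.75% fell. The median log2 fold change of the DNA transposons was -0.57. Their share was 20.3% in can and 10.9% in sa, against 11.8% in bam and 12.6% in bgcn, so the groups overlapped (exact permutation p = 1.0). Without Dsim-ninja, aurora-element and 1360 in the total, the DNA transposons held 4.05% in can and 3.1% in sa, against 6.86% in bam and 5.22% in bgcn, the opposite direction. Since 1360 is a DNA transposon with both spermatocyte libraries higher, a shift in this direction follows from leaving it out. Of the 3 copia-family elements, copia itself overlapped between groups (log2 fold change -0.14, SE 0.55). Dm88 had 0.704% in can and 1.16% in sa, against 2.16% in bam and 2.46% in bgcn (log2 fold change -1.31, SE 0.67, adjusted p = 0.181 in edgeR). The copia-family share was 5.09% in can and 5.64% in sa, against 6.57% in bam and 7.77% in bgcn.

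The telomeric retrotransposons, which rebuild chromosome ends, differed more within the spermatogonia group than between groups. Their summed share was 1.69% in can and 1.03% in sa, against 0.425% in bam and 2.26% in bgcn. Of the 6 elements 0 passed, against 5.26% of all tested elements. TART-C had 2335 reads in can and 490 in sa, against 45 in bam and 2980 in bgcn, and TART-B and Dyak-TART (a TART sequence of Drosophila yakuba) also had bam far below the other libraries. The groups overlapped in all 6. Log2 fold changes were 1.11 (SE 1.11) for Dyak-TART, 0.54 (SE 1.13) for TART-B, 0.28 (SE 1.02) for TART-C, -0.35 (SE 0.85) for TART-A, -1.01 (SE 1.12) for TAHRE and -1.11 (SE 1.16) for HeT-A.

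**Figure D3:**
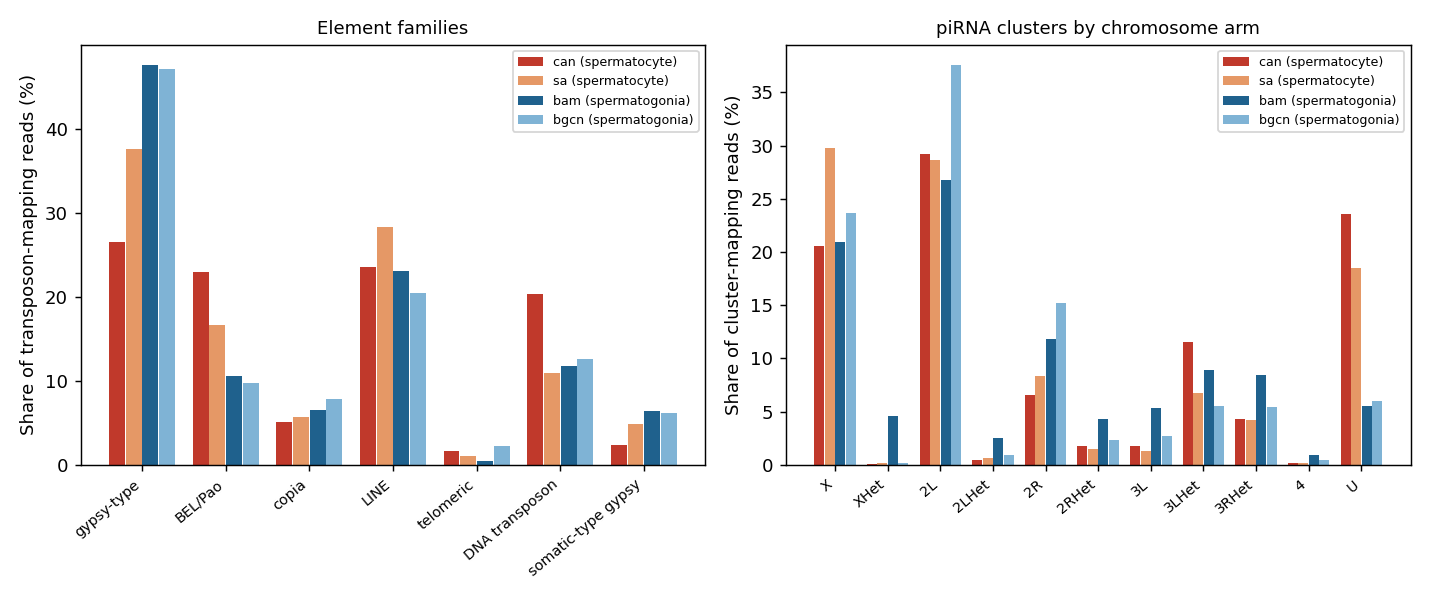
Share of transposon-mapping reads by element family (left, %) and share of cluster-mapping reads by chromosome arm (right, %), with 1 bar per library, the spermatocyte libraries can and sa left of the spermatogonia libraries bam and bgcn. The gypsy-type share is 26.5% and 37.6% against 47.6% and 47.1%, and the share of clusters on arm U is 23.6% and 18.5% against 5.56% and 5.96%. The somatic-type list is a subset of the gypsy-type family.

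Among piRNA clusters, source loci on the unplaced arm U took a larger share in both spermatocyte libraries. Arm U, which collects sequence without a known chromosome, held 23.6% of cluster-mapping reads in can and 18.5% in sa, against 5.56% in bam and 5.96% in bgcn (exact permutation p = 0.333). The gap between the groups was wider than the spread within either. Of its 17 clusters, 3 rose, 1 fell and 13 did not pass, where 4.04% of all clusters rose and 9.09% fell. Both spermatocyte libraries were higher in 6 and lower in 8, against 13.1% and 54.5% of all clusters. The median log2 fold change on U was -0.66, so the larger sum came from a few loci. Arm names such as U and 3LHet belong to Release 5 of the fly genome, and since no build is given for the tables, no sequence or gene annotation was set against the coordinates.

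Over all 99 clusters, 13 passed an adjusted p of 0.05 in edgeR on shares (13.1%), with 4 higher (4.04%) and 9 lower (9.09%). Log2 fold changes had a median of -0.93. After TMM scaling (median -0.11) 1 cluster passed, higher in spermatocyte testes, and with the authors' factors (median -1.58) 3 were higher (3.03%) and 48 lower. By DESeq2, 13 clusters passed as higher (13.1%) and 4 as lower (4.04%). Both spermatocyte libraries were lower in 54 clusters (54.5%) and higher in 13 (13.1%), so that 67.7% did not overlap, a split that was 33 and 26 after TMM scaling. The calls therefore depend on the scaling in both directions, and of the 4 higher clusters only 1 passed after TMM scaling. The direction of the 13 called clusters held under TMM scaling, the authors' factors and DESeq2.

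The cluster on U from 8795936 to 8797237, 1.3 kb long, had 442 reads in can and 603 in sa, against 4 in bam and 3 in bgcn. Pooled over the libraries of a group, its share was 241-fold higher in spermatocyte testes, with a 95% exact interval of 116 to 600 for counting error only. The log2 fold change was 7.99 (SE 0.96, adjusted p = 5.63e-10 in edgeR), and it passed on shares without any 1 of the 4 libraries and after TMM scaling. Whole y w testes had 1016 reads there, 5.53% of their cluster-mapping reads, against 5.18% in sa, the highest stage library.

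The cluster on U from 3113117 to 3137249 held 13.4% of reads in can and 8.12% in sa, against 1.09% in bam and 2.55% in bgcn, the largest gain of any cluster. Its log2 fold change was 2.57 (SE 0.66, adjusted p = 0.00355 in edgeR on shares, 0.145 after TMM scaling). The cluster on 3LHet from 356904 to 406827 held 6.89% in can and 3.54% in sa, against 0.65% in bam and 0.864% in bgcn. Its log2 fold change was 2.78 (SE 0.7, adjusted p = 0.00334 in edgeR on shares, 0.0905 after TMM scaling). Both clusters were well separated between groups, and both lost the call without bam (adjusted p = 0.232 in edgeR and 0.171). The 3LHet cluster also lost it without can (0.169). The remaining U cluster that rose, from 4015849 to 4029971, had 1029 reads in can and 88 in sa, against 7 in bam and 118 in bgcn. Its log2 fold change was 3.79 (SE 0.85, adjusted p = 0.00104 in edgeR on shares, 0.151 after TMM scaling), and it did not pass by DESeq2 (adjusted p = 0.0811). The log2 fold change fell to 1.92 without can and 2.93 without bam, and sa lay only a little above bgcn.

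Of the 9 clusters that fell, most held few reads in spermatocyte testes. The most abundant was the X cluster from 11089529 to 11095706, with 13 reads in can and 94 in sa, against 591 in bam and 1037 in bgcn. Its shares were 0.0602% and 0.808% against 2.83% and 3.18%, a log2 fold change of -2.8 (SE 0.79, adjusted p = 0.00918 in edgeR), and the call was lost without can (adjusted p = 0.297 in edgeR). The XHet cluster from 170080 to 204036 had 22 reads in can and 15 in sa, against 963 in bam and 64 in bgcn (log2 fold change -4.38, SE 0.9, adjusted p = 0.00035 in edgeR). That value rests on bam, where the cluster held 4.6% of reads, and without bam the log2 fold change was -0.78 (adjusted p = 0.58 in edgeR).

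The U cluster from 3411258 to 3430431 had 5 reads in can and 2 in sa, against 81 in bam and 86 in bgcn. Its pooled share was 14.8-fold lower (exact interval 7.03 to 37.4, counting error only), and the call (log2 fold change -3.94, SE 0.99, adjusted p = 0.00334 in edgeR) held without bam or bgcn and was lost without can (adjusted p = 0.297 in edgeR) and without sa (0.179). The cluster on 3LHet from 238123 to 332969 had 73 reads in can and 26 in sa, against 354 in bam and 375 in bgcn (log2 fold change -2.33, SE 0.76, adjusted p = 0.0268 in edgeR), and it passed with bgcn left out but with no other library left out. The other 5 lie on 3L (2 clusters), 3LHet, 3RHet and 2RHet, with log2 fold changes between -3.21 and -2.33. Their spermatocyte libraries had 1 to 36 reads each, against 26 to 218 in the spermatogonia libraries, and none of the 5 passed without can or without sa. Without bgcn all but the 3LHet cluster among these 5 passed, and without bam only that one did.

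**Figure D4:**
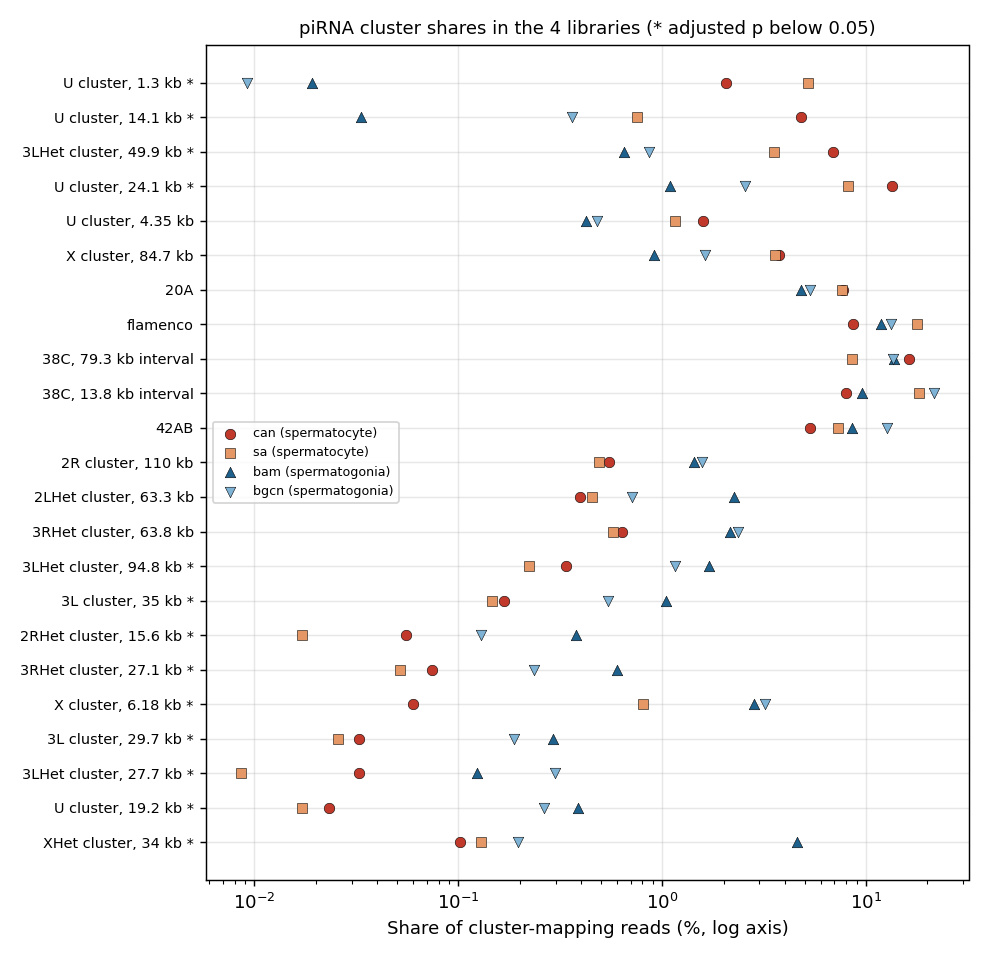
Share of cluster-mapping reads (%, log axis) of 23 named piRNA clusters in the can and sa (spermatocyte) and bam and bgcn (spermatogonia) libraries, 1 point per library, ordered by log2 fold change and labelled by arm and length. Clusters with a star passed an adjusted p of 0.05. The 1.3 kb U cluster has both spermatocyte libraries above 2% and both spermatogonia libraries below 0.02%.

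The best known clusters, by their Release 5 locations, did not pass. The flamenco locus, which supplies the somatic cells of the ovary with piRNAs, lies on X. Its interval from 21505666 to 21684449 held 8.65% in can and 17.8% in sa, against 11.9% in bam and 13.3% in bgcn. The groups overlapped, with can lowest and sa highest (log2 fold change 0.06, SE 0.59). The neighbouring 20A cluster, from 21392175 to 21431907, had 7.73% in can and 7.58% in sa, against 4.8% in bam and 5.31% in bgcn, with the libraries of each group close together (log2 fold change 0.6, SE 0.61, adjusted p = 0.495 in edgeR). Another X cluster, from 21759393 to 21844063, had 3.76% in can and 3.59% in sa, against 0.908% in bam and 1.63% in bgcn (log2 fold change 1.53, SE 0.67, adjusted p = 0.0979 in edgeR).

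The cluster 42AB, a germline source in ovaries transcribed from both strands, on 2R from 2144349 to 2386719, held 5.3% in can and 7.27% in sa, against 8.52% in bam and 12.7% in bgcn (log2 fold change -0.75, SE 0.6, adjusted p = 0.351 in edgeR). Its log2 fold change of -0.75 lay above the median of all clusters and was 0.06 after TMM scaling. The 2 intervals at 38C on 2L differed within groups. The one from 20104660 to 20118503 held 7.97% in can and 18.1% in sa, against 9.57% in bam and 21.5% in bgcn, and the one from 20148259 to 20227581 held 16.3% in can and 8.52% in sa, against 13.7% in bam and 13.5% in bgcn. The groups overlapped in both, with log2 fold changes of -0.25 (SE 0.59) and -0.13 (SE 0.58).

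By arm, the share of 2R clusters was 6.58% in can and 8.37% in sa, against 11.8% in bam and 15.2% in bgcn, and 6 of its 10 clusters had both spermatocyte libraries lower, near the 54.5% of all clusters. The 11 clusters on 3L held 1.73% in can and 1.29% in sa, against 5.35% in bam and 2.68% in bgcn, with both spermatocyte libraries lower in 8 and higher in 0, against 54.5% and 13.1% of all clusters. The 10 clusters on 2RHet held 1.75% in can and 1.52% in sa, against 4.29% in bam and 2.35% in bgcn, with both lower in 8 (54.5% over all clusters). The shares of X, 2L and 3LHet overlapped between groups. The 18 clusters on 3RHet held 4.32% in can and 4.19% in sa, against 8.4% in bam and 5.47% in bgcn.

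The 13 clusters with both spermatocyte libraries higher had a median length of 24.1 kb, and 6 of them lay on U, which holds 17 of the 99 clusters. Their median density was 14.6 reads per kb in can and 6.24 in sa, against 2.75 in bam and 5.65 in bgcn. The 54 with both spermatocyte libraries lower had a median length of 35.6 kb and a median density of 0.663 reads per kb in can and 0.355 in sa, against 2.56 in bam and 2.38 in bgcn. These densities are of reads as counted, so they also carry the depth of each library. The clusters were picked by these same reads, so the direction of the density difference follows from the choice and is no further result.

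A readout in other samples is the loss of each element's small RNAs in aub (N11/HN2) and ago3 (t2/t3) mutant testes relative to aub/CyO and ago3/TM6 heterozygotes. It comes from single whole-testis libraries of each genotype, as the authors' normalised signal, and has no test. All 4 elements that rose in spermatocyte testes were below 10% of the heterozygote signal in the aub mutant. Dsim-ninja stood at 0.163%, aurora-element at 0.478%, baggins at 2.02% and opus at 6.62%. Dsim-ninja was the lowest of all 83 elements with a signal in both aub libraries, and 1360 stood at 0.581%.

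Of the 12 elements with both spermatocyte libraries higher and an aub value, 10 lay below 10% of the heterozygote (83.3%), with a median of 3.5%. Over all 83 elements 44 did (53.0%), with a median of 6.89%. Family makeup differs between these sets, since 11 of 39 gypsy-type elements lay below 10% (28.2%). Outside the gypsy type, 9 of 10 elements with both spermatocyte libraries higher lay below 10% (90.0%), against 33 of all 44 (75.0%, median 4.39%). Those with both spermatocyte libraries lower had medians of 15.4% among 19 gypsy-type elements and 4.29% among 10 others. The median of these 19 was well below that of all 39 gypsy-type elements. Of the 19, 7 lay below 10% (36.8%), against 28.2% of the 39. Of the 10 others, 7 lay below 10%, against 33 of all 44. Elements with a signal of 0 in an aub library have no ratio, so a complete loss is not counted. Among non-gypsy elements with both lower, 12 had an ago3 value and 10 an aub value, whereas among those with both higher 10 had each. Across the 83 elements the log2 aub ratio and the stage log2 fold change had a Pearson r of -0.22 and a Spearman rho of -0.17. This is a weak relation across elements, which share libraries and reads and are not independent replicates.

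In the ago3 mutant the 4 elements that rose stood nearer the rest. The element 1360 did not, at 6.08% of the heterozygote against a median of 23.7% over all elements. Of the 12 with both spermatocyte libraries higher, 2 lay below 10% of the heterozygote (16.7%), as did 14 of all 85 elements with a value (16.5%). Dsim-ninja stood at 16.6%, aurora-element at 22.9%, baggins at 16.4% and opus at 32.1%, near the median of 23.7% over all elements. Bari1, which fell in spermatocyte testes, stood at 5.4% in the ago3 mutant and 2.95% in the aub mutant, and HMS-Beagle at 37.6% and 12.0%. Across the 85 elements the ago3 ratio had a Pearson r of 0.05 and a Spearman rho of 0.03 with the stage log2 fold change.

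**Figure D5:**
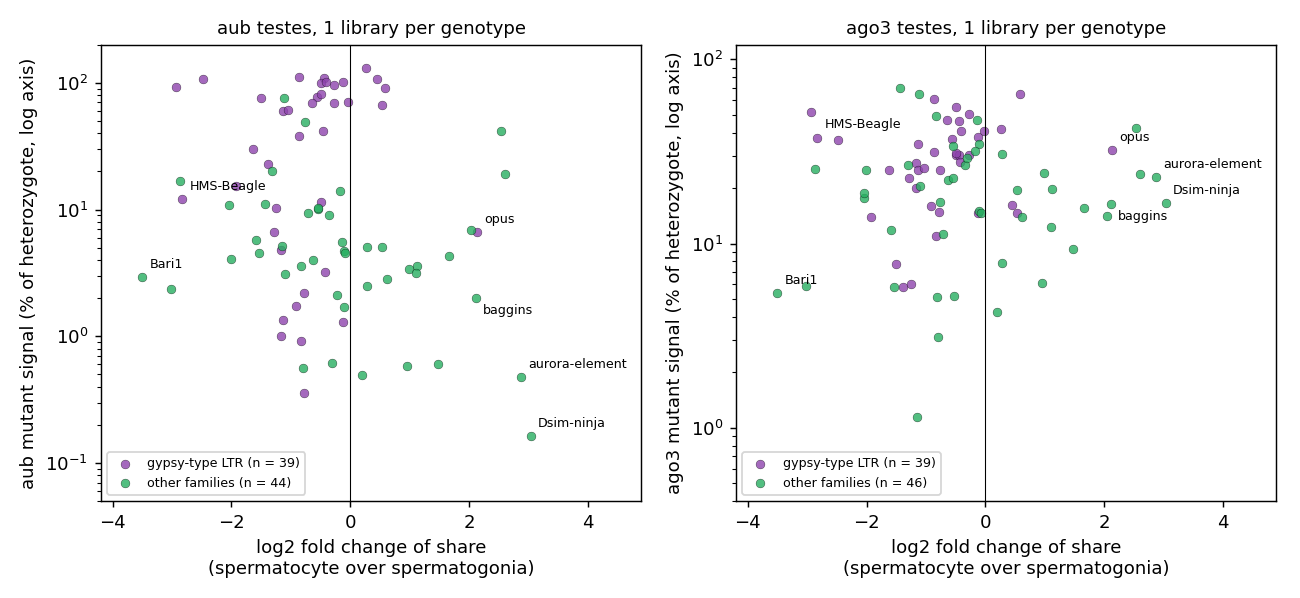
Signal of each element in the aub mutant (left, 83 elements) and the ago3 mutant (right, 85 elements) as a percentage of the heterozygote (log axis), against the log2 fold change of its share between spermatocyte and spermatogonia testes. Purple points are gypsy-type LTR elements, green points all others, and the 6 elements that passed the stage test are named. Dsim-ninja lies lowest in the aub plot, at 0.163%.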

How the data were processed

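For each stage library the authors deposited raw read counts of transposons and of piRNA clusters, beside a normalised signal that equals the deposited count times 1 factor per library. The deposited raw-read column of the bgcn cluster table holds whole counts in all 99 cluster rows. The aub and ago3 values are the authors' deposited signal for 86 elements, with an unstated basis. The submitters' processing notes name Bowtie 1 and DESeq2 without a role, and the build, read lengths and handling of multiply mapping reads were not given in the sources used here. Cells below the tables that name no feature were left out.

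Counts were tested with edgeR 4.0.16 (R 4.3.3), with table totals as library sizes, so that fold changes are changes of share, the two-sided quasi-likelihood test and Benjamini-Hochberg adjustment over all tested features. Features with a count of 10 or more in 2 or more libraries were tested (114 of 117 transposons, 99 of 99 clusters). Each standard error was derived by dividing the log2 fold change by the square root of F. In tests on simulated counts with 20 changed features and 20 runs, 89.2% of 16-fold and 4.0% of 4-fold changes were recovered for transposons. For clusters 94.2% and 11.5% were recovered, so most simulated 4-fold changes were missed. The changed features were drawn at random, with equal numbers raised and lowered, unlike these data, where the median log2 fold change was below 0. In the data opus and baggins passed at log2 fold changes of 2.13 and 2.11. Alternatives were TMM scaling, the authors' factors, totals without 3 abundant features, DESeq2 1.42.0, other count minimums and leaving out each library.

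Named features were those past an adjusted p of 0.05, the 10 of highest mean share in each group, the 5 largest and 5 smallest log2 fold changes among features with a mean share of at least 0.5% whose groups did not overlap, the telomeric elements and the named clusters. The lists, the members and these rules were chosen with earlier results of these data known. Family lists were matched by name, and 3 elements were in no list. Some names were added to the lists once the tables' names were seen. Elements named outside these rules (I-element, diver, diver2, jockey, FB, Tirant, Stalker2, gypsy5, Idefix) were chosen after their values were seen. No list held markers of other cell types except the somatic-type elements.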

Additional observations from a re-analysis of the deposited data

How the results depend on the processing

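The number of called transposons, 6 on shares, was 12 with TMM scaling, 10 with the authors' factors and 17 with DESeq2, and 0 to 6 when 1 library was left out. With TMM scaling and 1 library left out, chosen after seeing the data, it was 12 without can, 9 without bgcn, 7 without sa and 5 without bam. The 13 called clusters became 1 with TMM scaling, 51 with the authors' factors, 28 with totals without the 3 most abundant clusters, 5 at a count minimum of 100 (32 clusters tested) and 3 to 33 with 1 library left out, and with TMM scaling 9 without can, 3 without sa, 2 without bgcn and 0 without bam (7 higher and 7 lower by edgeR at an unadjusted p under 0.05). DESeq2 called 17 clusters, 13 higher and 4 lower, of which 7 were among the 13. In sa, 36 clusters had fewer than 10 reads, and some clusters called lower were among them.

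Without Dsim-ninja, aurora-element and 1360 in the total, spermatocyte minus spermatogonia differences were 1.61 points for BEL/Pao (9.54 with them), -9.5 for the gypsy type (-15.3), -0.691 for the copia family (-1.81), 10.7 for LINEs (4.2) and -2.46 for DNA transposons (3.37). Shares of the authors' normalised signal are the same as shares of raw reads. The alternative total without those 3 elements keeps baggins, the LINE that rose, and was not applied to clusters by arm. The 3 elements were higher in both spermatocyte libraries, so these changes partly follow from the choice of elements.

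Among the features chosen by the naming rule, those whose log2 fold change took the opposite sign under an alternative did not pass in any fit run on them. With TMM scaling they were 0.45 (roo), 0.37 (copia), 0.29 (F-element), 0.20 (TART-A), 0.51 and 0.73 (the 38C intervals from 20104660 and 20148259) and 0.06 (42AB, on 2R from 2144349). With DESeq2 they were 0.56, 0.46, 0.38, 0.30, 0.58, 0.80 and 0.13 in that order, and 0.07 for Doc. With totals without the 3 elements they were 0.23 (roo), 0.13 (copia) and 0.07 (F-element). With the authors' factors they were -0.18 (TART-C), -0.60 (flamenco, on X from 21505666) and -0.06 (20A, on X from 21392175). With 1 library left out, the ranges of these features that crossed 0 were -0.26 to 0.07 (roo), -0.38 to 0.14 (copia), -0.94 to 0.01 (Doc), -0.91 to 0.32 (F-element), -1.84 to 0.45 (HeT-A), -1.72 to 0.44 (TAHRE), -0.96 to 0.73 (TART-A), -0.3 to 2.77 (TART-B), -0.69 to 4.95 (TART-C), -0.55 to 0.49 (flamenco), and -0.96 to 0.44 and -0.67 to 0.26 (the 38C intervals). The cause of these changes was not tested. No paired analysis was possible because the labels give the libraries no replicate numbers.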
